A study of Mus musculus with 8 samples.

Results

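The genes described here are those that copy the DNA and run S phase of the cell cycle: the replicative helicase and the factors that load it, the sliding clamp with its loaders, polymerases and primase, the enzymes that supply nucleotides, the chaperones and methyltransferase that restore chromatin behind the fork, and the regulators of entry into S phase. They were chosen by name from a list of 55 gene symbols, and 54 of these had a probe set among the 22206 tested on the array, while Mcm7 was not analysed here. Signal was measured in RAW264, a mouse macrophage-like cell line, on 8 mouse Clariom S arrays. The arrays came from 4 clones, and each clone gave 1 array after IL-4 treatment for 48 h and 1 array without IL-4. The clones KO2 and KO1 are Gpr137b -/- and the clones WT2 and WT1 are Gpr137b +/+, and the methods name CRISPR/Cas9 genome editing as the way in which clones of both genotypes were made. Each group is 2 clonal lines, so the spread within a group is the spread between 2 clones. For the IL-4 treatment the cells were changed to serum-deprived medium with albumin, and no source used here states whether the cells without IL-4 had this change, so cytokine and medium cannot be told apart.

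Before S phase the origin recognition complex, Cdc6 and Cdt1 load the Mcm helicase on DNA, and Cdc45 and the GINS complex then switch it on. Behind the helicase the primase and polymerases copy both strands, held on DNA by the clamp Pcna, while ribonucleotide reductase makes the deoxynucleotides and Asf1 and CAF-1 place histones on the new strands. Many of these genes are transcribed by E2F factors as cells pass into S phase. The share of RAW264 cells that were cycling was not measured on these arrays.

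Signals are the log2 of the deposited intensities, so a difference of 1 is a 2-fold change, and levels are compared only within a gene. Background was set for each array from its 23 antigenomic controls, which match no mouse sequence, at the level that 95% of them stayed under, and it lay between 6.64 and 6.78. Of the 54 members, 37 were above background on all 8 arrays, 10 on some arrays and 7 on none (Gins1, Pola1, Pold1, Exo1, Dscc1, Tk1 and E2f1). Of 9 macrophage markers measured, 8 were above background on all arrays, and of the markers of B cells, T cells, fibroblasts and epithelial cells none was above it on any array. The targeted gene Gpr137b had a signal of 10.82 in KO2, 10.00 in KO1, 11.93 in WT2 and 10.32 in WT1 with IL-4, and of 11.12 in KO2, 10.24 in KO1, 11.67 in WT2 and 11.50 in WT1 without IL-4. All clones thus gave signal for it (KO minus WT adjusted p = 1.0 with IL-4 and 0.993 without IL-4 in limma), and since the place of its probes relative to the edit is not known here, this does not check the genotype labels. Over all probe sets the WT clones lay farther apart than the KO clones: 6.03% of probe sets with IL-4 and 9.63% without IL-4 were at least 2-fold apart between WT2 and WT1, and 1.47% and 1.62% between KO2 and KO1. The medians of the members and the leading differences between genotypes are therefore given with and without WT2. The spread of an array was read as the interquartile range of its log2 signals, each minus the probe set's median over the 8 arrays. It was widest on WT1 without IL-4 (0.41), WT2 without IL-4 (0.37) and WT2 with IL-4 (0.34). The remaining arrays lay between 0.25 and 0.28. Whether array quality adds to the differences between the WT clones was not tested.

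Promoters are shown for 4 members that the results turn on: Rrm2 and Rrm1, the small and large subunits of ribonucleotide reductase, the histone chaperone gene Asf1b, and Mcm6 of the helicase. Each run covers 250 bases before to 50 bases after the gene start, read 5′ to 3′ on the strand of the gene, from RefSeq on GRCm38.p6. Rrm2 lies at chr12:24708004-24708303 and Rrm1 at chr7:102441445-102441744, Asf1b at chr8:83955444-83955743, all on the plus strand, and Mcm6 at chr1:128359656-128359955 on the minus strand. Capitals mark the letters of the E2F motif, searched as TTTCCCGC, TTTCGCGC, TTTGCCGC or TTTGGCGC, and of the CCAAT box, searched as CCAAT, both on either strand, so that a match on the other strand reads as its reverse complement.
Rrm2: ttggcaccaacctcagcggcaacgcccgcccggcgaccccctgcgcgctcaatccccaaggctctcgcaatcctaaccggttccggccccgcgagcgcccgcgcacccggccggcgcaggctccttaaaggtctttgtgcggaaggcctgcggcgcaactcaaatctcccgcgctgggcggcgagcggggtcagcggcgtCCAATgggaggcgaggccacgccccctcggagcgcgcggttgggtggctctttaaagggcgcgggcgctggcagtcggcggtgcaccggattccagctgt
Rrm1: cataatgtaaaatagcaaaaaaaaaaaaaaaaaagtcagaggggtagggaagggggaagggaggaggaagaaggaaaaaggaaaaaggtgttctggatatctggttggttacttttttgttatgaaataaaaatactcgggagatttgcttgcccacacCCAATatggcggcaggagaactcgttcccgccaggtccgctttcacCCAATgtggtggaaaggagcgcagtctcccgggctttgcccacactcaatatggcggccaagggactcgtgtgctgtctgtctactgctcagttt
Asf1b: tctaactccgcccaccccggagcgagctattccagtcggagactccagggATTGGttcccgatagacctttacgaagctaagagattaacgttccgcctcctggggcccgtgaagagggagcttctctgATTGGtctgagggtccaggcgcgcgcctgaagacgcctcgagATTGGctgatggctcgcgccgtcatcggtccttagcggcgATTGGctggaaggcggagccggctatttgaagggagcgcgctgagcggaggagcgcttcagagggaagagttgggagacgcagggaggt
Mcm6: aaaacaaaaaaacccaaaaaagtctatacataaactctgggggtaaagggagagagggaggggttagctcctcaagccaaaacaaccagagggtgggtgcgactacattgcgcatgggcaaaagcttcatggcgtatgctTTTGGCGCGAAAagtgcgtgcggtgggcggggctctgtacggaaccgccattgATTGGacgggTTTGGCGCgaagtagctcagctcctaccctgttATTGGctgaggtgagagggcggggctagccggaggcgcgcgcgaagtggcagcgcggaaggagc
Rrm2 held 1 CCAAT box in this window, Rrm1 held 2 and Asf1b held 4, and none of these windows held the E2F letters. The Mcm6 window held the E2F letters 3 times, of which a pair overlap on opposite strands, and 2 CCAAT boxes. Of the 54 members 43 had a promoter in the table, and 16 of them (37.2%) held the E2F letters, against 2.6% of all 27025 genes with a promoter there. The CCAAT box stood in 26 of the 43 (60.5%), against 41.1% of all genes. A match describes these letters only, and genes were on this list for their role in replication, so the share is a description of it. The median WT2 minus WT1 difference was -0.35 with IL-4 and -1.01 without IL-4 for the 16 members with the E2F letters, and -0.58 and -0.99 for the 27 members without them, so both sets were lower in WT2.

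The replication genes were lower in WT2 than in WT1 under both conditions, while KO2 and KO1 lay closer together. The median of the 54 members in WT2 minus WT1 was -0.55 with IL-4 and -1.02 without IL-4, beside -0.03 and 0.02 over all probe sets. The median in KO2 minus KO1 was 0.19 with IL-4 and -0.01 without IL-4. These are differences of single arrays, so they carry no test, and fewer cycling cells and less RNA of these genes per cell cannot be told apart in bulk RNA. Lower in WT2 than in WT1 were 42 of 54 members with IL-4 (all probe sets 53.1%) and 50 of 54 without IL-4 (all probe sets 48.8%). Between the KO clones the counts lower in KO2 were 18 with IL-4 (all probe sets 49.4%) and 27 without IL-4 (all probe sets 50.5%). At least 2-fold lower in WT2 were 14 members with IL-4 (all probe sets 2.54%) and 27 without IL-4 (all probe sets 5.0%), and none was at least 2-fold higher with IL-4 (all probe sets 3.49%) or without IL-4 (all probe sets 4.63%). Some of these values were below background, and with each such value set to the background of its array, 10 members with IL-4 (all probe sets 1.74%) and 21 without IL-4 (all probe sets 3.62%) stayed at least 2-fold lower in WT2. Between the KO clones no member was at least 2-fold lower with IL-4 (all probe sets 0.522%) or without IL-4 (all probe sets 0.712%). At least 2-fold higher in KO2 was only Prim1 with IL-4 (all probe sets 0.946%), and no member without IL-4 (all probe sets 0.905%).

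**Figure D1:**
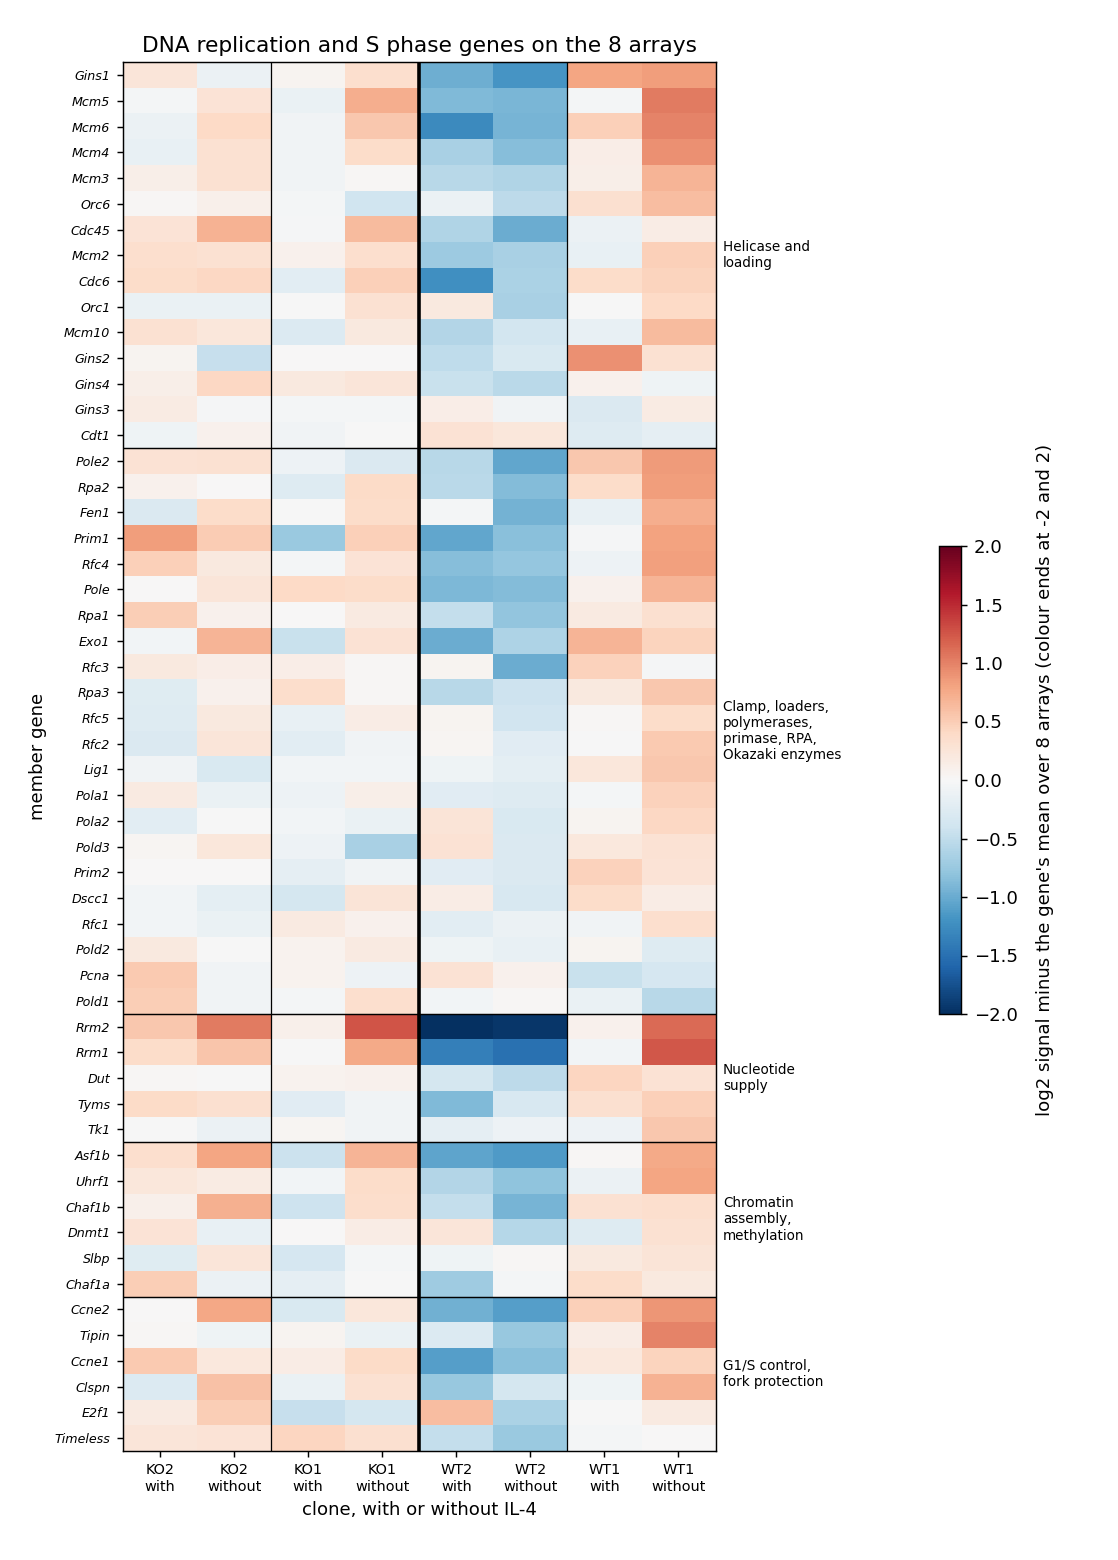
Log2 signal of the 54 members on the 8 arrays, each minus the gene's own mean over the 8 arrays, grouped by role and sorted within a role by WT2 minus WT1 without IL-4. Columns are clones with and without IL-4, and both WT2 columns are blue for most genes, darkest for Rrm2 and Rrm1.

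WT2 was also compared with the other 3 clones, as a description, since it was singled out from these values. It was the lowest of the 4 clones for 40 members with IL-4 (all probe sets 32.5%), for 43 without IL-4 (all probe sets 27.5%), and for 34 under both conditions (all probe sets 13.0%). The WT2 minus WT1 differences with and without IL-4, which come from different arrays of the same clones, correlated over the 54 members (Pearson's r = 0.66, Spearman's rho = 0.63), beside r = 0.35 over all probe sets. The KO2 minus KO1 differences gave r = 0.10 over the members and 0.16 over all probe sets. The members are not independent points, since they share arrays.

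**Figure D2:**
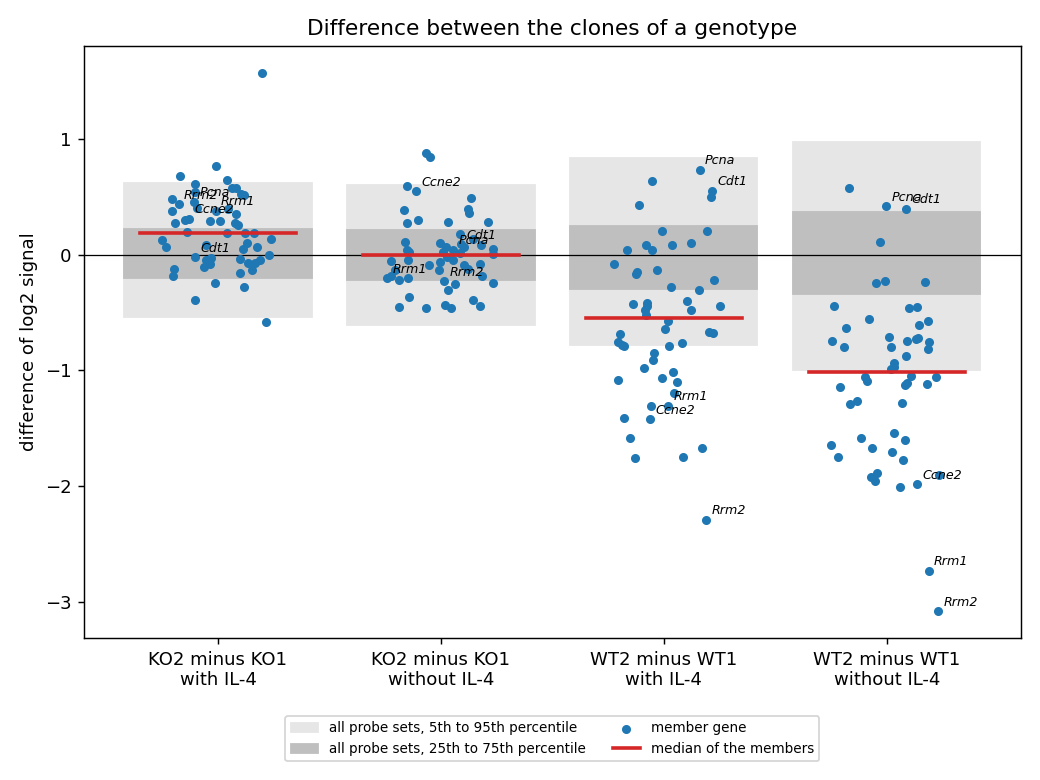
Difference of log2 signal between the 2 clones of a genotype, 1 point for each of the 54 members, with the members' median in red and the spread of all probe sets in grey. The WT2 minus WT1 points lie below 0 for 42 members with IL-4 and 50 without IL-4, while the KO points lie around 0.

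Of all members, Rrm2 of the nucleotide supply showed the widest gap between the WT clones in both conditions, and Rrm1 the next widest without IL-4. Rrm2 had a signal of 10.70 in KO2, 10.27 in KO1, 7.97 in WT2 and 10.26 in WT1 with IL-4, and of 11.21 in KO2, 11.44 in KO1, 8.23 in WT2 and 11.31 in WT1 without IL-4. The WT2 arrays were thus the lowest under both conditions and did not overlap with the other 6, 4.90-fold below WT1 with IL-4 and 8.46-fold below it without IL-4. Rrm1, its partner subunit, had 10.56 in KO2, 10.18 in KO1, 8.82 in WT2 and 10.13 in WT1 with IL-4, and 10.75 in KO2, 10.95 in KO1, 8.70 in WT2 and 11.43 in WT1 without IL-4. WT2 lay below WT1 by 2.47-fold with IL-4 and by 6.64-fold without IL-4, and the highest of the 8 arrays was WT1 without IL-4. Tyms, the thymidylate synthase, was 2.29-fold lower in WT2 than in WT1 with IL-4 and 1.74-fold lower without IL-4. Dut, which clears dUTP, had 6.74 in KO2, 6.79 in KO1, 6.36 in WT2 and 7.15 in WT1 with IL-4, and 6.71 in KO2, 6.80 in KO1, 6.20 in WT2 and 7.01 in WT1 without IL-4. It was below background on both WT2 arrays and above it on the other 6, by a small margin on the KO arrays. The KO clones were thus only known to be at least 1.04-fold above WT2 with IL-4 and at least 1.09-fold without IL-4. Tk1, the thymidine kinase, was below background on all arrays.

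Among the helicase genes, 12 of 15 members were lower in WT2 than in WT1 with IL-4 (all probe sets 53.1%). Without IL-4 it was 14 of 15 (all probe sets 48.8%). Mcm6 had 9.77 in KO2, 9.82 in KO1, 8.61 in WT2 and 10.36 in WT1 with IL-4, and 10.28 in KO2, 10.42 in KO1, 8.95 in WT2 and 10.87 in WT1 without IL-4. Both WT2 arrays were below all others, 3.36-fold under WT1 with IL-4 and 3.79-fold under it without IL-4. Mcm4 had 9.08 in KO2, 9.16 in KO1, 8.57 in WT2 and 9.35 in WT1 with IL-4, and 9.53 in KO2, 9.60 in KO1, 8.37 in WT2 and 10.14 in WT1 without IL-4. The order of the clones was the same as for Mcm6, with WT1 the highest and WT2 the lowest within either condition. Mcm2 and Mcm3 were lower in WT2 by 0.58 and 0.67 with IL-4 and by 1.12 and 1.28 without IL-4 on the log2 scale. Mcm5 had 7.48 in KO2, 7.38 in KO1, 6.63 in WT2 and 7.49 in WT1 with IL-4, and 7.79 in KO2, 8.24 in KO1, 6.60 in WT2 and 8.55 in WT1 without IL-4. It was below background on both WT2 arrays and above it on the other 6, so WT1 was at least 1.72-fold above WT2 with IL-4 and at least 3.77-fold without IL-4. Mcm10, which helps to start the helicase, had 7.65 in KO2, 7.08 in KO1, 6.77 in WT2 and 7.20 in WT1 with IL-4, and 7.57 in KO2, 7.55 in KO1, 6.99 in WT2 and 7.97 in WT1 without IL-4, where WT2 was again the lowest clone in either condition.

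Not every loading factor was lower in WT2. Cdt1 had 10.79 in KO2, 10.82 in KO1, 11.18 in WT2 and 10.63 in WT1 with IL-4, and 10.97 in KO2, 10.88 in KO1, 11.10 in WT2 and 10.71 in WT1 without IL-4. Both WT2 arrays were the highest of the 8, by a small margin. Gins3 of the GINS complex had 8.62 in KO2, 8.42 in KO1, 8.59 in WT2 and 8.17 in WT1 with IL-4, and 8.43 in KO2, 8.41 in KO1, 8.39 in WT2 and 8.62 in WT1 without IL-4, a narrow range in which the clones changed order. Orc1, the largest subunit of the origin recognition complex, was lower in WT2 than in WT1 by 1.05 without IL-4 but had a WT2 minus WT1 difference of 0.20 with IL-4. Orc6, another subunit of that complex, had 7.91 in KO2, 7.84 in KO1, 7.75 in WT2 and 8.19 in WT1 with IL-4, and 7.98 in KO2, 7.49 in KO1, 7.36 in WT2 and 8.50 in WT1 without IL-4, with WT2 lowest and WT1 highest in either condition. Some helicase genes were dim: Cdc45 was above background on 5 arrays, Cdc6 on 3, Gins2 on 2 and Gins1 on none. Cdc45 had 7.04 in KO2, 6.75 in KO1, 6.17 in WT2 and 6.64 in WT1 with IL-4, and 7.46 in KO2, 7.39 in KO1, 5.78 in WT2 and 6.91 in WT1 without IL-4. Neither WT2 array reached background, while both KO clones did in either condition, KO1 with IL-4 only barely (6.745 against a background of 6.743). The KO clones were at least 1.14-fold above WT2 with IL-4 and at least 1.73-fold without IL-4. Gins2 had 6.62 in KO2, 6.57 in KO1, 6.06 in WT2 and 7.48 in WT1 with IL-4, and 6.10 in KO2, 6.57 in KO1, 6.26 in WT2 and 6.87 in WT1 without IL-4, where only the WT1 arrays were above background.

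At the fork itself, Prim1, the catalytic subunit of the primase, had 9.55 in KO2, 7.98 in KO1, 7.67 in WT2 and 8.69 in WT1 with IL-4, and 9.23 in KO2, 9.20 in KO1, 7.88 in WT2 and 9.53 in WT1 without IL-4. WT2 was the lowest clone in both conditions, and KO1 with IL-4 lay close to it. Pole2, a subunit of the leading strand polymerase, was 2.15-fold lower in WT2 than in WT1 with IL-4 and 3.73-fold lower without IL-4, and Rpa2 of the single-strand binding protein was 1.88-fold and 3.26-fold lower. Rfc4 of the clamp loader had 9.06 in KO2, 8.54 in KO1, 7.72 in WT2 and 8.48 in WT1 with IL-4, and 8.77 in KO2, 8.85 in KO1, 7.81 in WT2 and 9.41 in WT1 without IL-4. Here too WT2 did not overlap with the other clones. The clamp gene Pcna went the other way, with 16.44 in KO2, 15.98 in KO1, 16.20 in WT2 and 15.47 in WT1 with IL-4, and 15.86 in KO2, 15.82 in KO1, 16.01 in WT2 and 15.59 in WT1 without IL-4. WT1 was its lowest clone in either condition. Fen1, which trims Okazaki fragments, depended on the condition: WT2 was 3.18-fold lower than WT1 without IL-4 and 1.07-fold higher with IL-4.

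Of the chromatin genes, Asf1b had 10.42 in KO2, 9.66 in KO1, 9.03 in WT2 and 10.10 in WT1 with IL-4, and 10.88 in KO2, 10.77 in KO1, 8.95 in WT2 and 10.84 in WT1 without IL-4. The WT2 arrays were below the other 6, by 2.09-fold under WT1 with IL-4 and 3.69-fold without IL-4. Uhrf1, which brings the maintenance methyltransferase to new DNA, had 8.05 in KO2, 7.76 in KO1, 7.23 in WT2 and 7.71 in WT1 with IL-4, and 7.99 in KO2, 8.19 in KO1, 7.02 in WT2 and 8.61 in WT1 without IL-4, again with WT2 lowest. Chaf1a, the large subunit of CAF-1, had 8.09 in KO2, 7.41 in KO1, 6.88 in WT2 and 7.96 in WT1 with IL-4, and 7.47 in KO2, 7.59 in KO1, 7.55 in WT2 and 7.79 in WT1 without IL-4, so that WT2 stood apart only with IL-4. Slbp, which binds the ends of histone messages, differed little, by -0.28 with IL-4 and -0.25 without IL-4 in WT2 minus WT1. Dnmt1, the maintenance methyltransferase, had 10.32 in KO2, 10.05 in KO1, 10.29 in WT2 and 9.79 in WT1 with IL-4, and 9.89 in KO2, 10.20 in KO1, 9.48 in WT2 and 10.35 in WT1 without IL-4. It was lower in WT2 than in WT1 without IL-4 only.

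Both E cyclins, which start S phase with Cdk2, were lower in WT2. Ccne2 had 8.21 in KO2, 7.90 in KO1, 7.24 in WT2 and 8.67 in WT1 with IL-4, and 8.97 in KO2, 8.42 in KO1, 7.09 in WT2 and 9.08 in WT1 without IL-4. Ccne1 had 9.79 in KO2, 9.41 in KO1, 8.17 in WT2 and 9.48 in WT1 with IL-4, and 9.47 in KO2, 9.65 in KO1, 8.43 in WT2 and 9.71 in WT1 without IL-4. For both genes the WT2 arrays lay below the other 6, by 2.48-fold to 2.68-fold under WT1 with IL-4 and by 2.44-fold to 3.96-fold without IL-4. Tipin, a partner of Timeless in the complex that protects the fork, had 7.87 in KO2, 7.90 in KO1, 7.57 in WT2 and 7.99 in WT1 with IL-4, and 7.75 in KO2, 7.71 in KO1, 7.09 in WT2 and 8.83 in WT1 without IL-4. The wide gap without IL-4 came from a high WT1 as well as a low WT2.

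**Figure D3:**
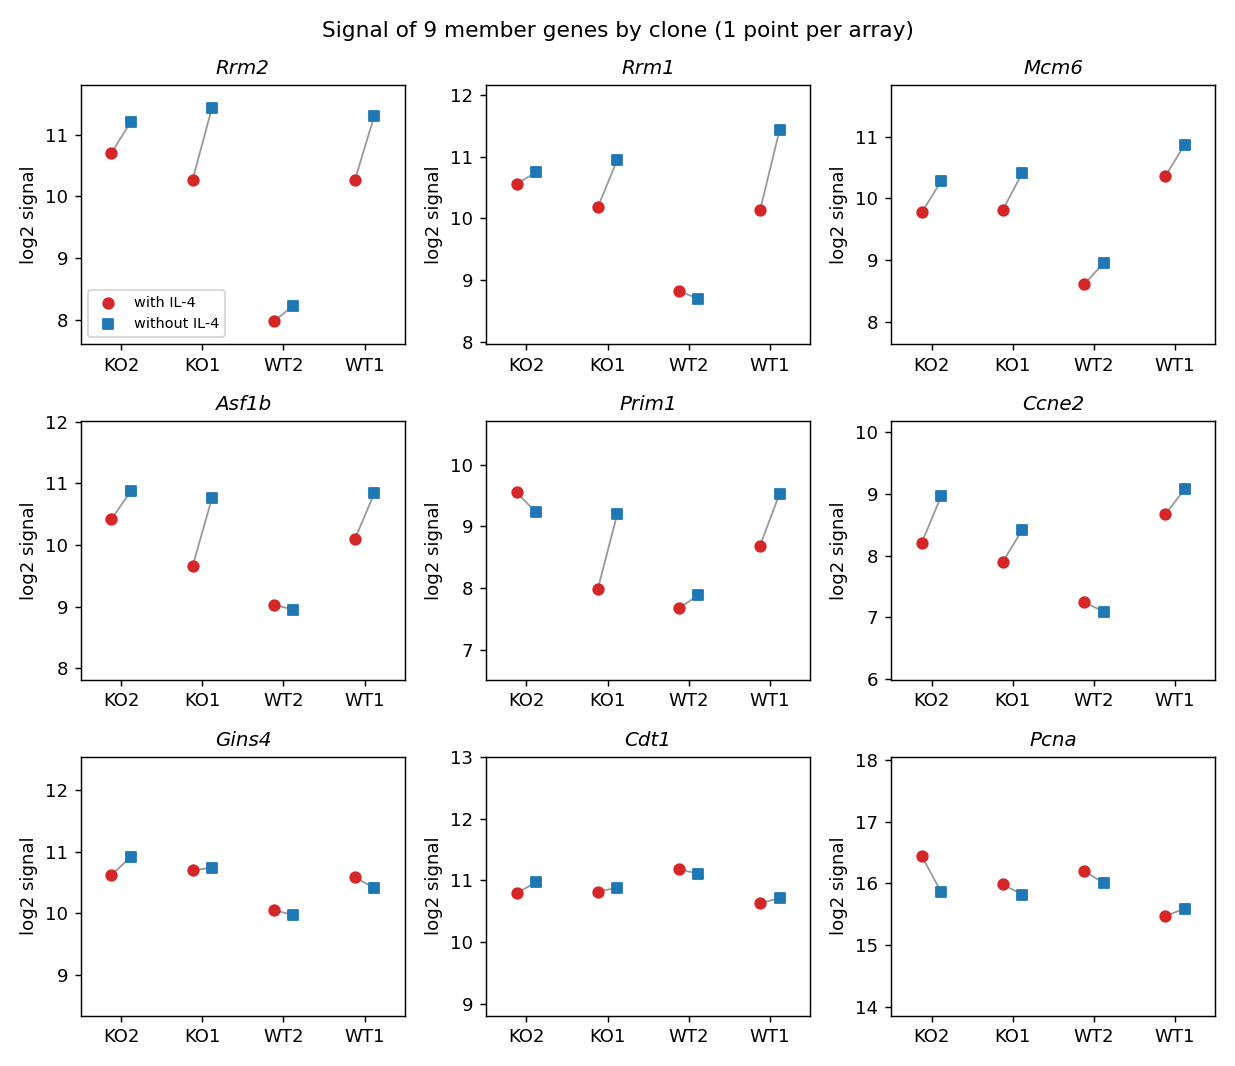
Log2 signal of 9 members by clone, 1 point per array, red circles with IL-4 and blue squares without IL-4, joined within a clone. Every panel spans the same height, so slopes and gaps can be compared, and WT2 is lowest for all but Cdt1 and Pcna.

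With IL-4 minus without IL-4, most replication genes were lower in WT1 and KO1, while the median was near 0 in KO2 and above 0 in WT2. The median of the members was -0.01 in KO2, -0.20 in KO1, 0.10 in WT2 and -0.34 in WT1, beside medians of all probe sets of 0.01, -0.004, -0.02 and 0.002. Lower with IL-4 were 29 of 54 in KO2 (all probe sets 49.4%), 40 in KO1 (all probe sets 50.6%), 19 in WT2 (all probe sets 52.1%) and 44 in WT1 (all probe sets 49.8%). At least 2-fold lower were Asf1b, Prim1 and Rrm2 in KO1 (all probe sets 1.13%) and Mcm5, Rrm1 and Rrm2 in WT1 (all probe sets 2.68%), and no member in KO2 (all probe sets 0.779%) or WT2 (all probe sets 1.44%). At least 2-fold higher were E2f1 and Rfc3 in WT2 (all probe sets 1.38%), and no member in KO2 (all probe sets 0.77%), KO1 (all probe sets 1.01%) or WT1 (all probe sets 2.08%). E2f1, the activating E2F factor, had 5.71 in KO2, 5.07 in KO1, 6.15 in WT2 and 5.52 in WT1 with IL-4, and 6.02 in KO2, 5.17 in KO1, 4.91 in WT2 and 5.71 in WT1 without IL-4, below background on every array. Rfc3, a clamp loader subunit, had 6.61 in KO2, 6.55 in KO1, 6.47 in WT2 and 6.87 in WT1 with IL-4, and 6.54 in KO2, 6.44 in KO1, 5.42 in WT2 and 6.39 in WT1 without IL-4. Only WT1 with IL-4 was above background for it, and WT2 without IL-4 was the lowest array.

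**Figure D4:**
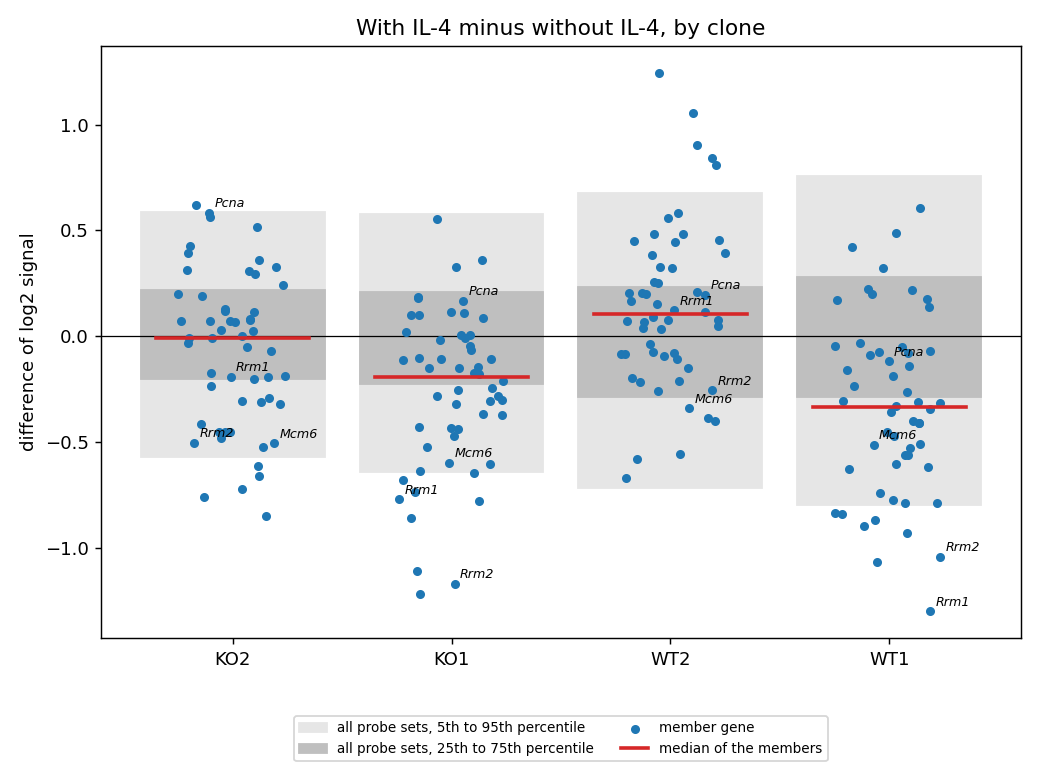
Difference of log2 signal, with IL-4 minus without IL-4, for the 54 members in each clone, with the members' median in red and the spread of all probe sets in grey. The median is -0.34 in WT1 and -0.20 in KO1, close to 0 in KO2 and 0.10 in WT2.

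Lower in all 4 clones were 5 members, Cdc6, Clspn, Mcm6, Rrm2 and Slbp (all probe sets 8.44%), and higher in all 4 was 1, Rfc3 (all probe sets 7.93%), so these counts are near the share of all probe sets or below it. The IL-4 effects of KO1 and WT1 correlated over the 54 members at r = 0.36 (rho = 0.31) and over all probe sets at r = 0.29. The other pairs gave r over the members of 0.30 for KO2 and KO1, 0.28 for KO2 and WT1, 0.26 for KO1 and WT2, 0.03 for WT2 and WT1 and -0.07 for KO2 and WT2. Over all probe sets the same pairs, in that order, gave r of 0.24, 0.26, 0.32, 0.01 and 0.16.

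In the fit over all 8 arrays no member passed the threshold for the effect of IL-4. Benjamini-Hochberg adjustment over all 22206 probe sets in limma left 0 of 54 members and 0.0315% of probe sets in KO cells, 0 of 54 and 0.036% in WT cells, and 0 of 54 and 0.167% over both genotypes. At an unadjusted p of 0.05 the members past it were 0 in KO cells (all probe sets 2.77%), 1 in WT cells (Rfc3, higher, all probe sets 3.85%) and 1 over both genotypes (Clspn, lower, all probe sets 4.61%). Clspn, which encodes the checkpoint mediator claspin, had 6.59 in KO2, 6.72 in KO1, 6.10 in WT2 and 6.77 in WT1 with IL-4, and 7.44 in KO2, 7.16 in KO1, 6.50 in WT2 and 7.56 in WT1 without IL-4. It was lower with IL-4 in 4 of 4 clones, with an effect over both genotypes of -0.62 (95% interval -1.21 to -0.03, adjusted p = 1.0 in limma), and 4 of its 8 arrays were above background. Among the members above background on all arrays, the largest effect over both genotypes was that of Rrm2, at -0.74 (interval -2.29 to 0.81, adjusted p = 1.0 in limma), followed by Asf1b at -0.56, Rrm1 at -0.54, Mcm6 and Prim1 at -0.49 and Ccne2 at -0.39. Mcm4 and Mcm10 had effects of -0.37 and -0.35, and Uhrf1 and Rfc4 of -0.26, with adjusted p of 1.0 in limma for each. The intervals of these 10 genes include 0, and those of all but Mcm10 and Uhrf1 reach past a 2-fold decrease. Single clones moved several of them: Rrm1 had -0.18 without WT1 and -0.89 without WT2, Mcm4 -0.12 and -0.62, Rfc4 -0.04 and -0.47, and Uhrf1 0.01 and -0.54. Prim1 had -0.10 without KO1 and -0.87 without KO2, while Mcm6 stayed between -0.45 and -0.53 over the 4 clones left out. The smallest effects among the members above background on all arrays were those of Chaf1a, Tipin and Gins3, each at -0.01. The median effect of the members over both genotypes was -0.11, and it was 0.002 without WT1 and -0.23 without WT2, beside -0.01 for all probe sets.

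By role, the median effect of IL-4 over both genotypes was -0.20 for the helicase genes, -0.04 for the clamp, polymerase and primase genes, -0.20 for nucleotide supply, -0.24 for the chromatin genes and -0.06 for the regulators of entry and fork protection, beside -0.01 for all probe sets. The highest member of a role was Gins2 (0.23) for the helicase, Rfc3 (0.43) at the fork, Dut (0.08) for nucleotides, Dnmt1 (0.13) for chromatin and E2f1 (0.16) for entry. The lowest was Mcm5 (-0.55) for the helicase, Prim1 (-0.49) at the fork, Rrm2 (-0.74) for nucleotides, Asf1b (-0.56) for chromatin and Clspn (-0.62) for entry.

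The arrays of a clone form a pair, and with the clone as a fixed replicate block the effects keep their size while their errors shrink. Still no member passed, with a smallest adjusted p in limma of 0.323 for Clspn over both genotypes, 0.63 for Rfc3 in WT cells and 0.962 for Exo1 in KO cells. At an unadjusted p of 0.05 the block gave 6 lower members over both genotypes (Asf1b, Clspn, Exo1, Mcm5, Mcm6 and Rrm2, all probe sets 3.65%) and 1 higher (Rfc3, all probe sets 3.06%), and Exo1 is below background on every array. With the clone as a random block there was 1 lower member (all probe sets 3.16%).

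The replication genes had a higher median in KO than in WT cells, which turned with the WT clone used. The median KO minus WT difference of the members was 0.17 with IL-4 and 0.21 without IL-4, beside 0.02 and 0.0003 for all probe sets. No member passed the adjusted threshold in limma with IL-4 (all probe sets 0.0315%) or without IL-4 (all probe sets 0.018%). At an unadjusted p of 0.05 there was none with IL-4 (all probe sets 3.53%), and without IL-4 there were Cdc45 and Gins4, both higher in KO (all probe sets 4.41%). Cdc45, the helicase activator, averaged 7.43 ± 0.05 in KO and 6.35 ± 0.80 in WT cells without IL-4 (SD, n = 2 clones each), a difference of 1.08 (interval 0.26 to 1.90, adjusted p = 0.993 in limma). WT2 was below background there, and with WT1 alone the difference was 0.52. Gins4 of the GINS complex had 10.62 in KO2, 10.70 in KO1, 10.06 in WT2 and 10.58 in WT1 with IL-4, and 10.91 in KO2, 10.74 in KO1, 9.97 in WT2 and 10.41 in WT1 without IL-4. Both KO clones were above both WT clones in either condition, with a difference of 0.64 without IL-4 (adjusted p = 0.993 in limma), 0.42 with WT1 alone, and a close margin to WT1 with IL-4.

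Both KO clones lay above both WT clones for 12 members with IL-4 (all probe sets 17.9%) and for 6 without IL-4, Cdc45, Chaf1b, Gins4, Pold2, Rfc3 and Timeless (all probe sets 14.1%). Both KO clones lay below both WT clones for 7 members with IL-4 (all probe sets 15.3%) and for none without IL-4 (all probe sets 16.3%). The largest KO minus WT differences with IL-4 were those of Rrm2 (1.37), Rrm1 (0.89) and Ccne1 (0.78), and those without IL-4 were Rrm2 (1.56), Cdc45 (1.08) and Asf1b (0.93). For Rrm2 the KO clones averaged 10.49 ± 0.31 and the WT clones 9.12 ± 1.62 with IL-4, and 11.32 ± 0.16 and 9.77 ± 2.18 without IL-4 (SD, n = 2 clones each), so the spread within WT exceeded the difference. With WT1 as the only WT clone these differences were 0.22 for Rrm2, 0.24 for Rrm1 and 0.12 for Ccne1 with IL-4, and 0.02 for Rrm2 and -0.02 for Asf1b without IL-4.

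With WT1 as the only WT clone, the median KO minus WT difference of the members turned to -0.10 with IL-4 and -0.31 without IL-4. With WT2 as the only WT clone it was 0.54 with IL-4 and 0.75 without IL-4. A fit with a lone WT clone takes its spread from the KO clones. Over all probe sets the WT clones lay farther apart than these, so only the sizes of the differences are given. With WT2 alone the difference of Rrm2 was 2.52 with IL-4 and 3.10 without IL-4, and that of Rrm1 was 2.15 without IL-4. For Cdc45 the WT2 array without IL-4 was below background, so the KO clones were at least 1.73-fold above it and no exact difference is given. With WT1 alone the difference of Rrm2 was 0.22 with IL-4 and 0.02 without IL-4.

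Whether IL-4 acted differently in KO and WT cells was tested as the difference of the effects. No member passed in limma (smallest adjusted p = 1.0, all probe sets 0.0%), and none had an unadjusted p under 0.05 (all probe sets 1.52%). Of the 54 members 4 had an effect of one sign in both KO clones and of the other in both WT clones, Gins4, Prim2, Rfc1 and Tk1 (all probe sets 8.43%). Tk1 was below background throughout, and the effects of Prim2, the regulatory subunit of the primase, were only -0.0014 in KO2, -0.11 in KO1, 0.07 in WT2 and 0.20 in WT1.

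Genes that act beside the members were read on the same arrays. The 40 other S phase genes measured, such as the checkpoint kinase and further origin and repair factors, had a WT2 minus WT1 median of -0.45 with IL-4 and -0.80 without IL-4. Of these, 31 were lower in WT2 with IL-4 (all probe sets 53.1%) and 33 without IL-4 (all probe sets 48.8%). The 57 histone genes, picked by the start of their symbol to cover the replication-dependent ones, had -0.21 with IL-4 and -1.59 without IL-4. A match by name can take in histone genes that are not replication-dependent. The 19 mitosis genes had the lowest medians, -0.91 with IL-4 and -2.40 without IL-4. Of them 17 were lower in WT2 with IL-4 (all probe sets 53.1%) and 19 without IL-4 (all probe sets 48.8%). The KO clones also lay apart for the mitosis list, with a KO2 minus KO1 median of 0.58 with IL-4 and -0.47 without IL-4. Lower in KO2 were 0 of 19 with IL-4 (all probe sets 49.4%) and 17 of 19 without IL-4 (all probe sets 50.5%). The 18 E2F and pocket protein genes had -0.26 and -0.68. The 15 CDK inhibitors and p53 targets had 0.02 and -0.31. Lower in WT2 were 7 of these 15 with IL-4 (all probe sets 53.1%) and 11 without IL-4 (all probe sets 48.8%). The 10 G1 cyclins and growth factor response genes had 0.74 and -0.06. With IL-4 that list was split, with 4 genes at least 2-fold higher in WT2 (all probe sets 3.49%) and 2 at least 2-fold lower (all probe sets 2.54%). Near-identical histone genes can share probes, so their members are not separate measurements.

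In these lists too the median effect of IL-4 was lowest in WT1. The mitosis genes had medians of -0.22 in KO2, -1.35 in KO1, -0.16 in WT2 and -1.63 in WT1, and the histone genes of -0.34 in KO2, -0.66 in KO1, 0.16 in WT2 and -1.21 in WT1. The other S phase genes had -0.02 in KO2, -0.13 in KO1, 0.21 in WT2 and -0.15 in WT1. WT2 had the effect nearest to 0 for the mitosis genes and a positive median for the histone and other S phase genes. No gene of these lists passed the adjusted threshold in any comparison in limma without a block, and with the clone as a fixed block E2f8, Myc and Fos passed over both genotypes. With the clone as a random block none of these calls was kept, at an adjusted p in limma of 0.605 for E2f8, 0.24 for Myc and 0.406 for Fos. With the replicate number as a fixed block Myc passed (adjusted p = 0.0266 in limma), while E2f8 (0.586) and Fos (0.279) did not. Over the clones left out, the effect of E2f8 over both genotypes ran from -1.45 to -1.15 and that of Fos from 0.95 to 1.17.

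**Figure D5:**
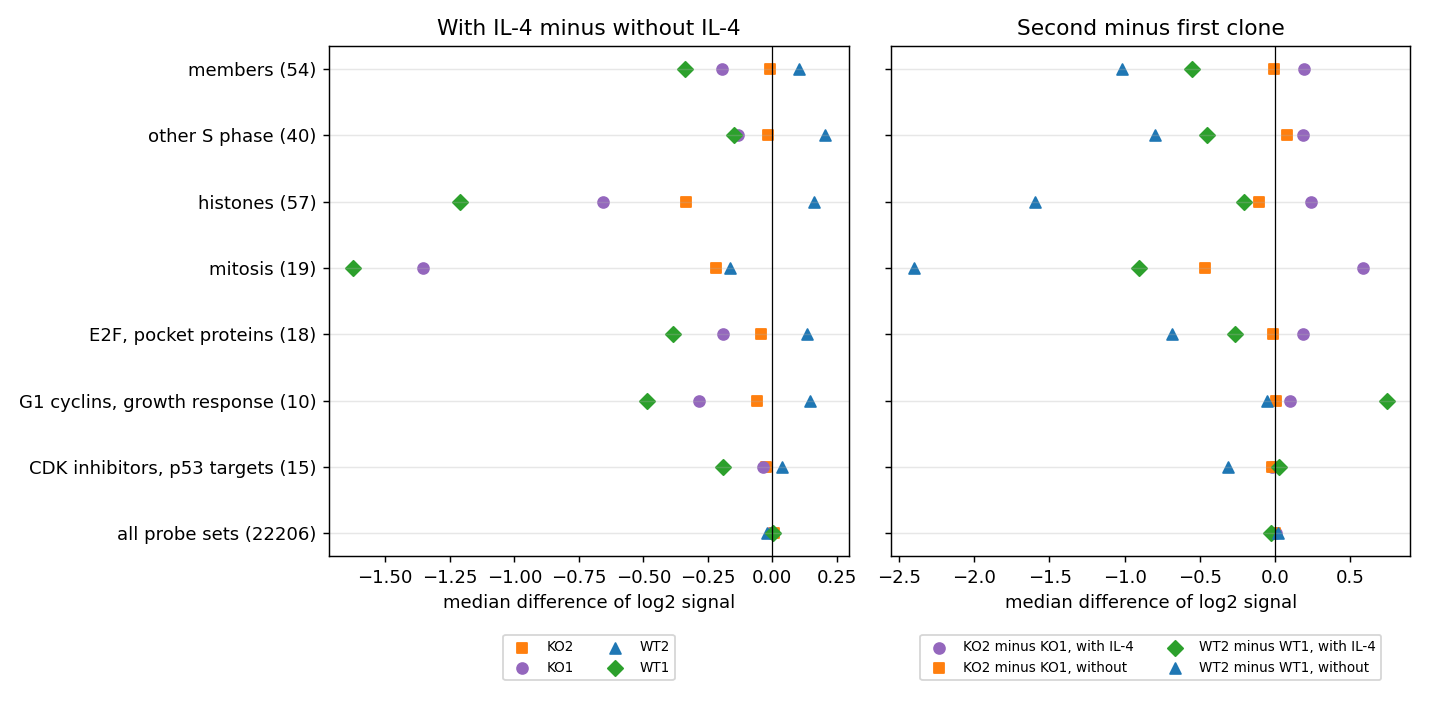
Median difference of log2 signal for the members, the lists beside them (genes measured in brackets) and all probe sets, with IL-4 minus without IL-4 by clone on the left and second minus first clone on the right. The mitosis, histone and S phase lists lie left of 0 in WT2 minus WT1, and all probe sets lie near 0.

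Mki67, the marker of cycling cells, had 10.43 in KO2, 9.40 in KO1, 7.52 in WT2 and 9.69 in WT1 with IL-4, and 10.54 in KO2, 11.57 in KO1, 8.24 in WT2 and 11.88 in WT1 without IL-4. It was lower with IL-4 in 4 of 4 clones, with WT2 the lowest clone in both conditions (-1.30 over both genotypes, adjusted p = 1.0 in limma). E2f8, a repressor of E2F targets, had 9.53 in KO2, 9.15 in KO1, 7.07 in WT2 and 9.09 in WT1 with IL-4, and 10.28 in KO2, 10.50 in KO1, 8.69 in WT2 and 10.58 in WT1 without IL-4. It too was lower with IL-4 in every clone, by 1.30 on the log2 scale over both genotypes (adjusted p = 0.968 in limma, 0.0236 with the clone as a fixed replicate block, and 0.605 with it as a random block). Myc, a growth regulator, had 10.29 in KO2, 9.18 in KO1, 11.22 in WT2 and 9.85 in WT1 with IL-4, and 8.72 in KO2, 8.01 in KO1, 9.40 in WT2 and 8.73 in WT1 without IL-4. It was higher with IL-4 in 4 of 4 clones, by 1.42 over both genotypes (adjusted p = 0.448 in limma, 0.0233 with the fixed block and 0.24 with the random block), and WT2 was its highest clone in both conditions. Egr1 and Ier3 of the same growth list were lower with IL-4 over both genotypes, at -0.98 and -0.77. Fos of that list was higher, at 1.06 (adjusted p = 0.719 in limma, 0.0472 with the fixed block and 0.406 with the random block). The median effect of that list over both genotypes was -0.23.

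The CDK inhibitors Cdkn1a and Cdkn1b had no common direction. Cdkn1a had 17.25 in KO2, 17.35 in KO1, 17.27 in WT2 and 17.21 in WT1 with IL-4, and 17.35 in KO2, 17.32 in KO1, 17.46 in WT2 and 17.20 in WT1 without IL-4, so that all arrays lay within a narrow range. Cdkn1b had 6.77 in KO2, 5.90 in KO1, 7.74 in WT2 and 7.52 in WT1 with IL-4, and 7.11 in KO2, 6.87 in KO1, 7.12 in WT2 and 8.36 in WT1 without IL-4. It was lower in both KO clones than in both WT clones with IL-4, at a fitted difference of -1.29 (adjusted p = 1.0 in limma), but 1 of the 2 KO arrays, KO1, was below background there.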

How the data were processed

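Total RNA of RAW264 clones was hybridized to mouse Clariom S arrays, and the authors normalized the scans by SST-RMA in the Transcriptome Analysis Console (RMA in the processing notes of the submitters). As deposited by the authors, the values are linear intensities, and log2 was taken of them here. Of 28846 rows, 6640 are control rows and were left out. Of the 22206 probe sets tested, 19572 carry 1 gene symbol in the platform annotation, 2634 are unnamed here and none has several.

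Groups were taken from the labels. One limma 3.58.1 fit (R 4.3.3) took in all 8 arrays, with 1 mean for each of 4 groups and no block, and 6 comparisons were adjusted by Benjamini-Hochberg over all probe sets with a threshold of 0.05. Differences between single arrays (the effect of IL-4 by clone, and second minus first clone) are descriptions. Where a gene was below background on 1 array of a pair, its fold is a lower bound against that array's background. The members and the lists beside them were chosen with earlier results of these data known. Values on every array are given for the members with the largest and smallest effects of IL-4 and of genotype and for the extremes of each role.

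The arrays of a clone are paired by their labels: their deviations from the group mean had a correlation of 0.162 for KO clones and 0.354 for WT clones over all probe sets. The results were recomputed after quantile normalization, with the 40% of probe sets of lowest mean signal removed, with a trended and robust eBayes, with a replicate block (clone, fixed or random, or the replicate number), with each clone left out, at 1.5-fold in place of 2-fold, and, chosen after seeing the data, with values below background set to it. The number of arrays limits the precision.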

Additional observations from a re-analysis of the deposited data

How the results depend on the processing

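No member passed the adjusted threshold of limma for any of the 4 IL-4 comparisons under any alternative tried. For KO minus WT the count past it was 0 under every alternative except leaving out WT1, and over the clones left out it ran from 0 to 1 with IL-4 and from 0 to 3 without IL-4. With the clone as a fixed or random replicate block, 0 members passed the adjusted threshold in every comparison that could be fitted. The same held with the replicate number as a replicate block. Over all probe sets, the deviations of KO and WT arrays of one replicate number correlated at 0.05 with IL-4 and -0.04 without IL-4. Whether some genes share a factor by replicate number was not tested. At an unadjusted p of 0.05 the members for the IL-4 effect over both genotypes numbered 1 in the fit without a block (all probe sets 4.61%), 7 with the clone as a fixed replicate block (all probe sets 6.71%), 6 without WT1 (all probe sets 9.84%) and 14 without WT2 (all probe sets 12.2%).

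With 1.5-fold in place of 2-fold, the members lower with IL-4 numbered 5 in KO2 (all probe sets 4.69%), 12 in KO1 (6.35%), 1 in WT2 (8.79%) and 15 in WT1 (9.82%), and those lower in the second clone 26 in WT with IL-4 (10.1%), 42 in WT without IL-4 (14.1%) and 1 in KO with IL-4 (3.92%). With values below background set to it, an alternative chosen after seeing the data, the members at least 2-fold lower in WT2 numbered 10 with IL-4 and 21 without IL-4. After quantile normalization 1 member was at least 2-fold lower with IL-4 in WT1, and the median of WT2 minus WT1 was -0.57 with IL-4 and -0.91 without IL-4, while that of the IL-4 effect in KO2 was 0.02. Over the clones left out, the IL-4 effect of Uhrf1 over both genotypes ran from -0.54 to 0.013, above 0 without WT1, and KO minus WT of Asf1b without IL-4 from -0.0168, without WT2, to 1.87, without WT1. The cause of these changes was not tested. Genes below background on some arrays are measured there only as a bound.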
